A study of Mus musculus with 2 samples.

Results

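The Egr transcription factors and the Nab corepressors that bind them are described here in mouse bone marrow-derived macrophages (BMDMs) given medium or the culture supernatant of apoptotic cells. The group holds 6 of the 18194 genes that the array's annotation names on a probe set of their own, namely Egr1, Egr2, Egr3, Egr4, Nab1 and Nab2, and they are read by 10 such probe sets. It was formed as a gene family, but it was chosen from results of this comparison that were already known, in particular the signals of Egr1, Egr2 and Egr3. The values below are therefore a description, without a test. The BMDMs came from female C57BL/6J mice aged 8 weeks and were grown with M-CSF for more than 7 days. Control cells stood in RPMI with 10% FCS, and the other cells in the supernatant of W3 cells, a line of Fas-expressing mouse T cells. These were exposed to human Fas ligand for 30 min and released their supernatant for 60 min in RPMI with 1% FCS. Both exposures lasted 1 hr. Apoptosis of the W3 cells, conditioning of the medium by W3 cells and the lower serum cannot be told apart with these arrays, because an array of living W3 cell supernatant was not analysed here.

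Egr factors are zinc finger proteins that bind GC-rich DNA, and most are immediate early genes, which cells transcribe within minutes of a stimulus without new protein synthesis. Serum response factor with its ETS partners at CArG boxes, and CREB at cAMP response elements (CREs), are the classical activators of such genes. Nab1 and Nab2 bind a short inhibitory domain of Egr1, Egr2 and Egr3 and recruit the NuRD complex through its remodeler Chd4. Nab2 is itself a known target gene of Egr factors, which gives the family a negative feedback loop. In the myeloid lineage Egr1 and Egr2 act with Nab2 in macrophage differentiation, where they repress genes of the neutrophil program.

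Egr2 and Egr3 were far brighter on the supernatant array than on the medium array, Nab2 was about 2-fold higher, and Egr1 and Nab1 read nearly alike on both arrays. Egr4 was not detected above the floor for dim signals. Each condition has 1 array, so no difference has a p-value and precision is bounded by the single array on each side. Signals are MAS5 intensities on a linear scale. Those under a floor of 38.4, set from odorant and pheromone receptor probe sets, were raised to it before ratios were formed. Of the 5 genes of the family that passed this floor, 3 (Egr2, Egr3 and Nab2) were at least 2-fold higher with the supernatant and 0 at least 2-fold lower. Over all 11977 measured genes, 0.96% lay 2-fold or more above medium and 0.843% as far below it, and nothing is read from the family's count, because the same contrast guided its choice. These shares rest on 115 genes higher and 101 lower, a split that was 145 and 74 after quantile normalization and 135 and 71 after loess.

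**Figure D1:**
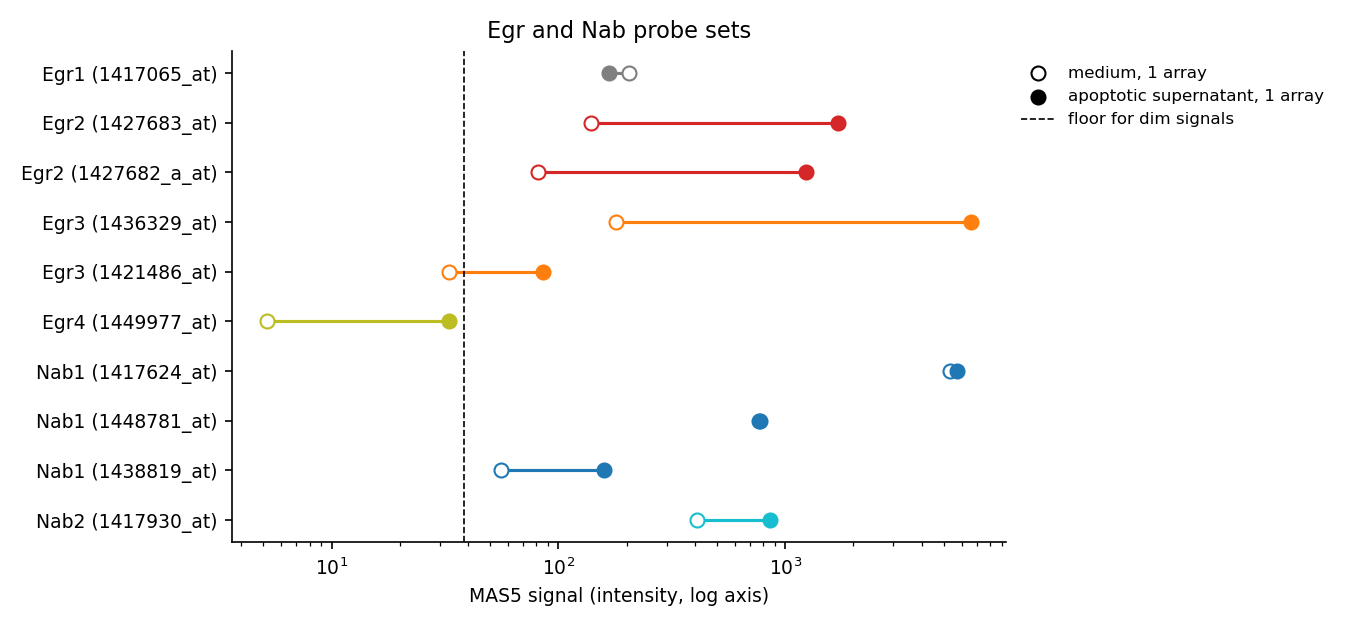
MAS5 signal (intensity, log axis) of each of the 10 Egr and Nab probe sets on the medium array (open circles) and the supernatant array (filled circles), with the floor of 38.4 as a dashed line. Both Egr2 probe sets and the brighter Egr3 probe set span more than 10-fold, the circles of Egr1 and of the brighter 2 Nab1 probe sets lie close together or coincide, and Egr4 stays left of the floor.

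Egr3, a factor best known from nerve and lymphocyte activation, had the largest difference of the family on its brighter probe set, but not with all probe sets averaged, where Egr2 was higher. This brighter probe set read 180 with medium and 6596 with the supernatant, which is 36.7-fold higher or 5.20 on the log2 scale. On this probe set Egr3 stood at rank 3 of the 11977 measured genes. Its other probe set gave 33.1 on the medium array, short of the floor, and 85.8 on the supernatant array, so that the difference there was at least 2.23-fold. Both Egr3 probe sets were thus higher with the supernatant. The gap between their log2 ratios was at most 4.04, since the ratio of the dimmer one is a lower bound. As computed after flooring, this gap ranks 2 among the 5759 genes with more than 1 probe set above the floor. The dimmer probe set carries the accession of the Egr3 mRNA in the annotation, and the brighter has no accession there. Which of them follows the Egr3 transcript more closely was not tested, since the position of the probes was not used here.

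Egr2, also known as Krox20, directs myelination in Schwann cells and is a factor of macrophage and T cell activation. Its brighter probe set read 140 with medium and 1706 with the supernatant, and was 12.2-fold higher. The second read 81.5 and 1232, and was 15.1-fold higher. All of these signals lay above the floor, and the probe sets differed by only 0.31 in log2 ratio, a little under the median gap of 0.33 over 5759 genes with more than 1 probe set above the floor. Egr2 stood at rank 8 of the measured genes. Egr2 and Egr3 were among the 8 genes that were at least 10-fold higher.

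Egr1, the founding member of the family and a frequent marker of ERK signaling, did not share this difference at 1 hr. An earlier or later difference of Egr1 was not measured. Its probe set read 205 with medium and 167 with the supernatant, a log2 ratio of -0.29 and rank 10262 of 11977. As a scale for such a value in the absence of replicates, the SD of log2 ratios between probe sets of the same gene was 0.25 over 5196 genes, and 0.31 where the dimmer probe set had a mean signal from 50 to 400. The Egr1 ratio is within this second SD of 0. It measures how far probe sets disagree within these arrays, and leaves out error between cultures or arrays. The log2 ratio of Egr2 exceeded that of Egr1 by 3.90, and the ratio of Egr3 exceeded it by 5.49, against an SD of 0.44 for a difference between 2 genes on the scale of the dim probe sets and 0.35 over all such genes. In folds, the ratio of Egr2 was 15.0 times and that of Egr3 44.9 times the ratio of Egr1. Egr1 is read by 1 probe set, so no second reading of its transcript was at hand.

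Egr4, which is mainly a neural member of the family and lacks the Nab-binding domain, gave 5.22 with medium and 32.9 with the supernatant on its only probe set. Both lie under the floor, and no fold is given. The receptor probe sets that define the floor reach a signal of 62.4, above both Egr4 readings.

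**Figure D2:**
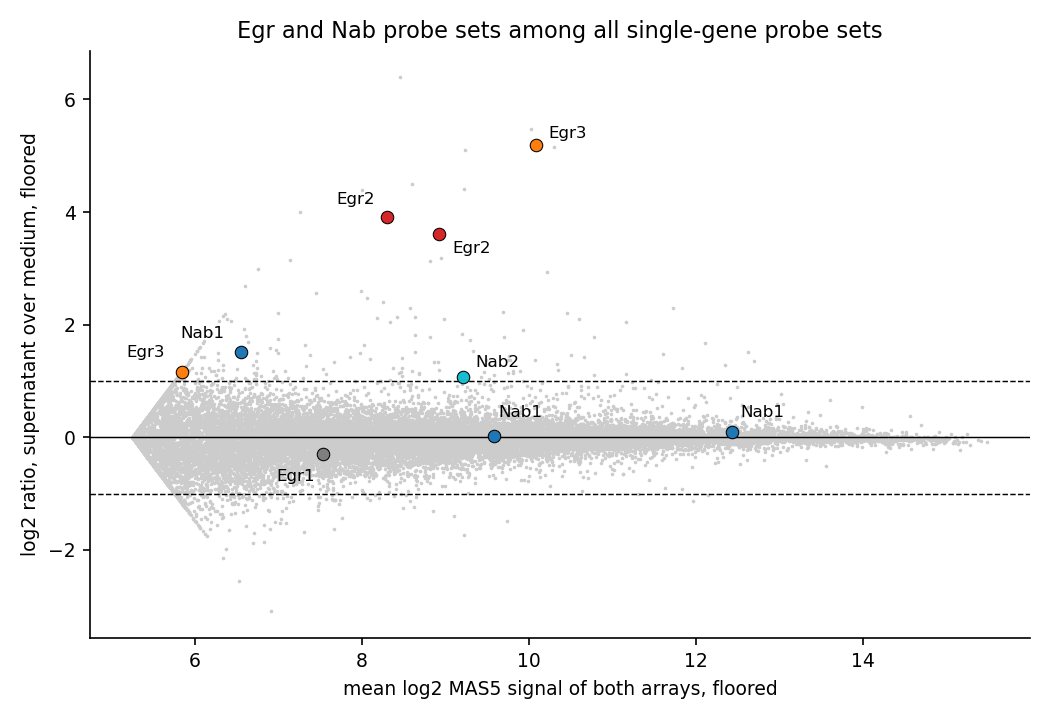
Log2 ratio of supernatant to medium against the mean log2 MAS5 signal of both arrays, after flooring, for all single-gene probe sets above the floor on at least 1 array (grey) and for those of Egr1, Egr2, Egr3, Nab1 and Nab2 (coloured), with dashed lines at a 2-fold difference. The brighter Egr3 probe set (5.20) and both Egr2 probe sets (3.61 and 3.92) lie far above the grey cloud, while Egr1 (-0.29) and the brighter 2 Nab1 probe sets (0.09 and 0.03) lie inside it.

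Of the corepressors, Nab2 was higher with the supernatant and Nab1 was not on its bright probe sets. Nab2 read 409 with medium and 857 with the supernatant on its only probe set, which is 2.10-fold higher, 1.07 on the log2 scale and rank 92 of the measured genes. It is thus just past the 2-fold line. It stayed there under every alternative processing, from a log2 ratio of 1.00 with the floor as a pseudocount to 1.10 after median-centring. Only the scalings and the pseudocount could move it, since its only probe set lies above every floor used. Nab1 read 5334 and 5692 on its brightest probe set, a log2 ratio of 0.09. On the next it read 763 and 776, a log2 ratio of 0.03. These probe sets both carry the accession of the Nab1 mRNA in the annotation. Another, dim probe set, annotated by a different accession, read 55.6 and 158, and was 2.85-fold higher. Its distance of 1.48 in log2 ratio from the lowest Nab1 probe set ranks 98 among the 5759 genes with more than 1 probe set. The log2 ratio of Nab2 exceeded that of Nab1 by 0.97 on the brightest probe sets, and by 0.52 with the mean of all Nab1 probe sets. Counted by probe set, 6 of the 9 that passed the floor in the family were at least 2-fold higher and 0 lower, beside 0.974% higher of all single-gene probe sets.

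From highest to lowest, the log2 ratios ran Egr3, Egr2, Nab2, Nab1 and Egr1. Egr3 exceeded Egr2 by 1.59, Egr2 exceeded Nab2 by 2.54, and Nab1 exceeded Egr1 by 0.38. This last gap lies between the SDs of 0.35 and 0.44 for a difference between 2 genes, so Nab1 and Egr1 are not set apart by it. The order of Egr2 and Egr3 rests on the bright Egr3 probe set, since with all probe sets of each gene averaged Egr2 was 13.6-fold and Egr3 9.76-fold higher. Egr2 and Egr3 exceeded Egr1 under all 9 alternatives, by at least 3.53 and 3.58 in log2 ratio.

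**Figure D3:**
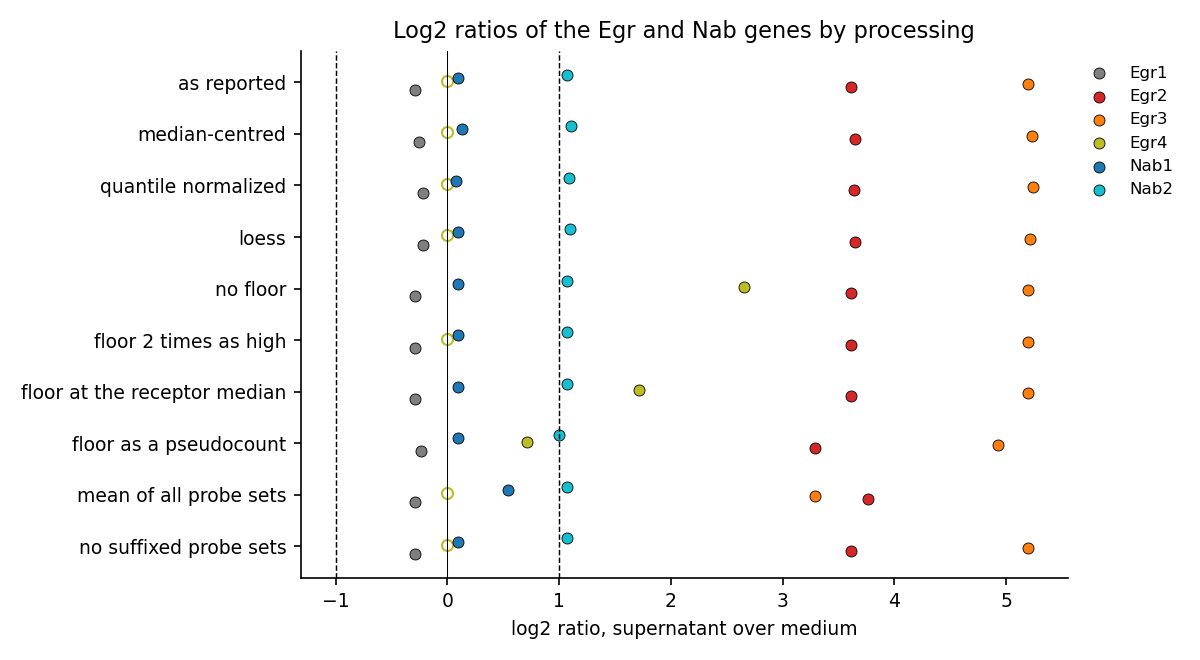
Log2 ratio of supernatant to medium for each Egr and Nab gene as reported and under 9 other ways of processing (rows), with dashed lines at a 2-fold difference and open circles at 0 where both signals of Egr4 are under the floor. Egr3 runs from 3.29 to 5.24 and Egr2 from 3.29 to 3.77, Egr1 stays between -0.29 and -0.22, and Egr4 passes 2-fold only where the floor is lowered or left out.

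The promoter sequences of the family are shown because Egr2, Nab2 and Nab1 differed by unequal amounts, 12.2-fold, 2.10-fold and 1.07-fold, and because CArG boxes, CREs and Egr sites are the elements through which such genes are known to respond. RefSeq windows of the build GRCm38.p6, which reach from upstream to just past each annotated start, matched 4 of the 6 genes, namely Egr2 with 5 annotated starts and Egr4, Nab1 and Nab2 with 1 each, and did not match Egr1 and Egr3. The letters searched, on both strands, were TGACGTCA for the full CRE, TGACG for the core of a CRE (also a part of the full CRE), GCGTGGGCG and GCGGGGGCG for the Egr site, CCGGAA for the ETS core, and the CArG box. The stretches below end at the base before the start, run 5′ to 3′ on the strand of the gene, and carry matches in capitals. The Egr2 stretch is chr10:67537719-67537868 on the plus strand, and holds a CArG box from 72 to 63 bases before the start between 2 CRE cores. The Nab1 stretch is chr1:52500449-52500598 on the minus strand, and holds 3 Egr sites and 1 CRE core. The Nab2 stretch is chr10:127666704-127666853 on the minus strand, and holds none of these letters.
Egr2: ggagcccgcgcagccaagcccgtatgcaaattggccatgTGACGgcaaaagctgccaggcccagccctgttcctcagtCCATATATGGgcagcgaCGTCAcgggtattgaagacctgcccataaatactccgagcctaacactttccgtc
Nab1: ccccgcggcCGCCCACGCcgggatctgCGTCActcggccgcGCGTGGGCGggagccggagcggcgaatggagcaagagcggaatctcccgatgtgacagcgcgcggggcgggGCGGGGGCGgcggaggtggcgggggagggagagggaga
Nab2: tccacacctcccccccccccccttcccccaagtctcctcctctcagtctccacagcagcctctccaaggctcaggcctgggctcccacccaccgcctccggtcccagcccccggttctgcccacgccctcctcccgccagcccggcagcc

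A CArG box stood in 4 of the 5 Egr2 windows, 3 of which overlap and share the same box, and in 1.63% of all 32851 windows. A CRE core stood in these 3 overlapping Egr2 windows and in the windows of Egr4 and Nab1, beside 20.8% of all windows. The Egr site occurred in the Nab1 window and in 3.47% of all windows, and the full CRE in no window of the family and in 1.79% of all. Egr2 also had 3 ETS cores, a pair of which overlap, in another of its windows, beside 14.9% of all windows that hold one. Nab1, with Egr sites in its window, read alike on both arrays on its bright probe sets. Nab2, 2.10-fold higher, had no exact match to the Egr site in its window. Whether these letters bear on the ratios was not tested. A match is a run of letters and was not tested as a binding site. The search took exact letters close to the start only. The printed Nab2 stretch holds tgcccacgc, which differs only in its first letter from CGCCCACGC, an Egr site matched in Nab1. An Egr site of Nab2 with other letters, or farther away, would be missed, so Nab2 is not shown to lack one.

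Genes around the family were taken from lists chosen by function, and these too were drawn up with earlier results of the data known. Among 18 genes of the input to Egr transcription, which are serum response factor, its cofactors and ETS partners, and kinases of the ERK cascade, 14 were named and measured, and 0 were at least 2-fold higher or lower. Their log2 ratios ran from -0.61 for Mapk7, the kinase ERK5, to 0.34 for Mef2c, with a median of 0.08 beside -0.02 over all measured genes. Srf itself read 461 and 479, and Mef2d, a partner of ERK5 signaling, 939 and 1144 on its brightest probe set and 0.477-fold on another. Elk3, an ETS partner of serum response factor, had a log2 ratio of 0.10 on its brightest probe set and 1.16 with the mean of all its probe sets taken before flooring, where 1 probe set read 3.09 with medium. The genes of all 16 proteins that work with Nab or Egr proteins were measured, and 0 passed 2-fold in either direction on the brightest probe set. On other probe sets Gatad2b reached 2.32-fold higher and Hcfc1 went down to 0.410-fold. Chd4, which Nab proteins contact, read 642 and 599. Chd3, its paralog, read 310 and 247, a log2 ratio of -0.33, the lowest of this list, Gatad2a of the NuRD complex 2506 and 2096, and Ddx20, a helicase that binds Egr and Nab proteins, had the highest at 0.24. Of the GC-box factors, whose sites overlap those of Egr proteins, 5 were measured with log2 ratios from -0.24 (Sp3) to 0.12 (Sp4), and Wt1, a close relative of the Egr factors, was under the floor on both arrays.

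Genes known from textbooks as targets of Egr factors lay on both sides of no difference after this 1 hr. Of 31 listed, 20 were measured, 2 were at least 2-fold higher and 1 lower, beside 0.96% and 0.843% of all measured genes, and the median log2 ratio was -0.04. The 2 higher genes were Nab2 and Vegfa, the endothelial growth factor, which read 133 and 706 on its brighter probe set, 5.30-fold higher, and was 1.91-fold higher on the other. Nab2 is also a member of the family, which was chosen with this contrast known, and is counted here again. Nothing is therefore read from the count of higher targets. Tnf, the inflammatory cytokine, read 503 and 251 and was 2.01-fold lower, a log2 ratio of -1.01 that shrank to between -0.97 and -0.96, short of 2-fold, once the arrays were median-centred, quantile normalized or fitted by loess, and to -0.91 with the floor as a pseudocount. Among the rest, the cell cycle inhibitor Cdkn1a read 9213 and 11310, the matrix receptor Cd44 15808 and 17759, and Tgfb1 1077 and 1044.

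Egr1 was not alone among immediate early genes. Of 36 other such genes 33 were measured, and 12 of these passed 2-fold upward and 2 downward, with a median log2 ratio of 0.85. Over all measured genes, the shares past 2-fold were 0.96% upward and 0.843% downward. This list was drawn up with earlier results of the data known, so nothing is read from its count. Nr4a2 (5.47) and Nr4a1 (5.16), orphan nuclear receptors, had the highest log2 ratios of the list, although the probe sets of Nr4a2 ranged from 0.999-fold to 44.3-fold. Their relative Nr4a3 read 20.3 with medium, under the floor, and 613 with the supernatant, a log2 ratio of at least 3.998. Both of its other probe sets were under the floor on both arrays. The 2 genes past 2-fold downward were Atf3, a stress-induced factor, with 5895 and 2699, and the kinase Plk2, with 1094 and 329. Genes that stayed near Egr1 included Myc, with 502 and 494, and Klf6, a zinc finger factor, with a log2 ratio of -0.29. Dusp6 and Dusp5, both phosphatases of ERK, went opposite ways, with 662 and 429 for Dusp6 and 152 and 1331 for Dusp5. Fos, the partner of Jun in AP-1, had a log2 ratio of 0.54. Jun itself read 2206 and 1144 on its brightest probe set, a log2 ratio of -0.95, and was 0.853-fold on another.
The genes with the log2 ratio nearest to that of Egr3, over the 2 arrays and among genes above the floor on both, were Nr4a1 at a distance of 0.04, Nr4a2 at 0.27 and Il1b at 0.70. Nearest to Egr2 were Ptgs2, the inducible cyclooxygenase, at 0.43, the ERK phosphatase Dusp5 at 0.48, and Gm6377 at 0.68. With 2 arrays this likeness is that of a single ratio.

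**Figure D4:**
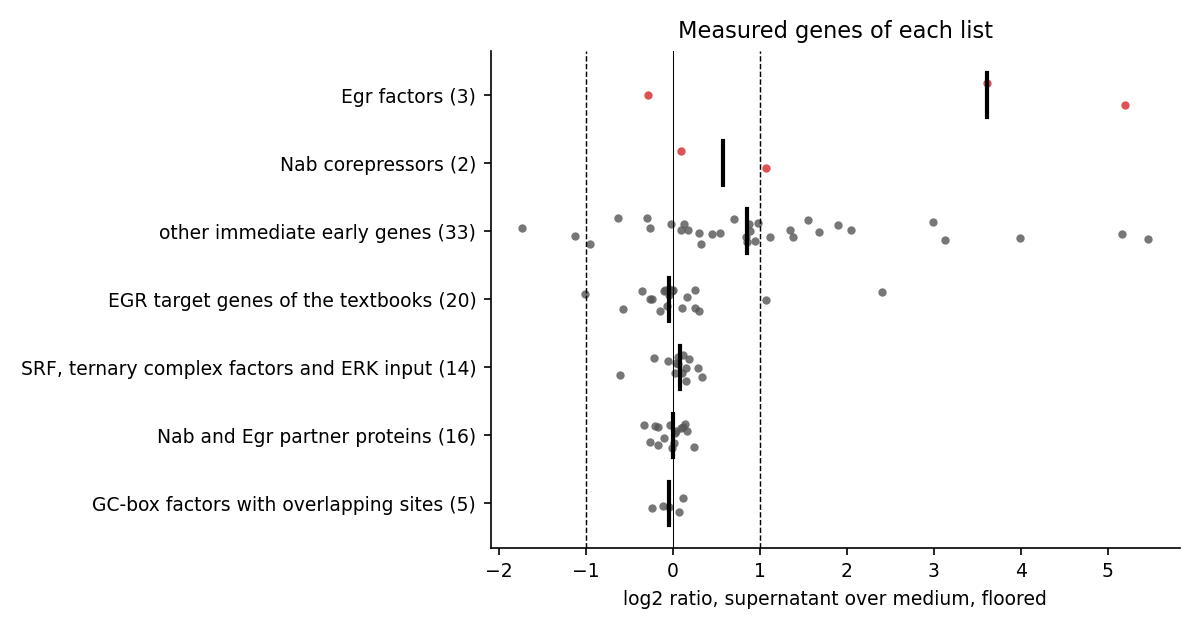
Log2 ratio of supernatant to medium for each measured gene (points) of the Egr and Nab families and of 5 lists of related genes, with the number measured in brackets. Bars mark medians and the dashed lines 2-fold. The Egr factors split into Egr1 at -0.29 and Egr2 and Egr3 at 3.61 and 5.20, and the lists of partner proteins, GC-box factors and inputs stay within 2-fold.

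Both arrays carried the markers of macrophages, with Csf1r, the M-CSF receptor, at 30999 and 28572 and Adgre1, the F4/80 antigen, at 16160 and 15781. The 11 measured macrophage markers summed to 157765 and 158670, and 1 of them, the engulfment receptor Mertk, was at least 2-fold higher, 2.23-fold. Egr2 and Egr3 are also made by activated T cells, and W3 cells are a T cell line. The array names 15 T cell markers, of which 11 stayed under the floor throughout, among them Cd3d, Cd3e and Cd3g. None of the 4 others was 2-fold higher. Of these, Zap70 read 208 and 313, 1.51-fold higher, and Cd8a, Cd5 and Cd28 were lower. All 15 together summed to 886 and 762. The 7 neutrophil markers named summed to 442 and 667. Mpo, Camp and Ltf stayed below the floor, and the 4 others were all higher with the supernatant, by less than 2-fold after flooring, with a median log2 ratio of 0.43. S100a9 gave 5.85 on the medium array and 73.0 on the supernatant array, at least 1.90-fold higher. Elane gave 9.89 and 51.8, Ngp 19.9 and 51.5, and S100a8 391 and 462. The 4 B cell markers named summed to 143 and 96.2, with Cd79a and Ms4a1 under the floor. The part of these differences in the results on Egr and Nab genes was not tested. In bulk RNA, fewer cells that express a gene and less RNA per cell cannot be told apart.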

How the data were processed

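RNA of BMDMs with medium or with apoptotic cell supernatant was measured on Affymetrix mouse arrays, 1 for each condition. The values that the authors deposited are MAS5 signals, a linear intensity for every probe set, and both arrays had a trimmed mean of 500.0. A genome build was not given in the sources used here. Groups came from the sample labels. The annotation gave 34958 of 45101 probe sets a single gene, and others were used for no gene.

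The floor for dim signals, 38.4, was the 95th percentile of 80 olfactory and vomeronasal receptor probe sets on the array where it was higher, and lower signals were raised to it. A gene was read by its probe set of highest mean signal, and counted as measured with at least 1 array above the floor. The members and the gene lists were chosen with earlier results of these data known. Named genes were all members, up to 3 per list with the largest difference, the Nr4a genes, and the 3 nearest in ratio to Egr2 and to Egr3. Others were named after their values were seen, namely Srf, Chd4, Gatad2b, Hcfc1, Elk3, Wt1, Atf3, Plk2, Fosb, Cdkn1a, Cd44, Tgfb1, Myc, Klf6, Dusp6, Fos, Jun and single markers. No test was run. The steps were tested on simulated data. Differences were planted only in genes brighter with medium than the Egr genes, so recovery at the signals of the Egr genes was not tested. Computing used pandas 2.3.3 and numpy 2.4.6 under Python 3.11.15, statsmodels 0.14.6 for loess, scipy 1.17.1, and matplotlib 3.10.9 for plots. The 9 alternatives changed the scaling, the floor or the choice of probe set, and sequences came from RefSeq (GRCm38.p6).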

Additional observations from a re-analysis of the deposited data

How the results depend on the processing

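No paired analysis was possible because a single array stands for either condition. The log2 ratios of Egr1 and Nab2 moved by less than the SD between probe sets (0.25) under all 9 alternatives. Other floors and other choices of probe set could not move them, since each gene has a single probe set, above every floor used. With the floor added as a pseudocount the log2 ratio of Egr2 was 3.29 and that of Egr3 4.93, and their excess over Egr1 was 3.53 and 5.17. Where all probe sets of each gene were averaged before flooring, the log2 ratio of Egr3 was 3.29 and its excess over Egr1 3.58, that of Nab1 was 0.54 and the excess of Nab2 over Nab1 0.52. Egr4, under the floor on both arrays, had a log2 ratio of 2.65 with no floor, 1.72 with the floor at the receptor median and 0.71 with the pseudocount, and with it 4 members were at least 2-fold higher without a floor or with the lowered one. Over all genes, 115 were at least 2-fold higher and 101 lower. With no floor these were 1865 and 2116, with the floor at the receptor median 975 and 1158, with the floor 2 times as high 27 were lower, and with the mean of all probe sets 157 were lower. Of 90 counts over the related lists under the alternatives 80 stayed within 1.5 times. For the inputs, the partner proteins and the GC-box factors the reported counts were 0, so there this means only that they stayed at 0. The cause of these shifts was not tested beyond the setting itself. Dim signals limit Egr4, the second Egr3 probe set and the dimmest Nab1 probe set most. Averaging probe sets also took Nr4a3 to a log2 ratio of 0.80 and Plk2 to 0.69, a change of sign for Plk2, through probe sets under the floor.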

Other observations

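The elements searched in the promoter windows of the family were also counted over the measured immediate early genes other than Egr factors, as a description. Of the 12 that were at least 2-fold higher with the supernatant, all had a window, and 10 held a CRE core, against 9 of 17 with a window among those that were not. The Egr site was in 5 of the 12, among them Nr4a1 and Fosb, and in 3 of the 17. A CArG box was in 1 of the 12 and 1 of the 17, and the full CRE in 2 and 2. The ETS core was in 1 of the 12 and 4 of the 17. Over all genes with a window, 23.0% held a CRE core, 3.93% an Egr site, 1.81% a CArG box, 2.03% the full CRE and 16.7% an ETS core. The classes were formed after the ratios were seen, and no test was run.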
